A study of Homo sapiens with 30 samples.

Results

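The long noncoding RNAs (lncRNAs) described here carry small nucleolar RNAs (snoRNAs) in their introns. Members were taken by symbol, as every gene named SNHG (snoRNA host gene) followed by a digit together with GAS5, ZFAS1 and DANCR. The rule found 31 of the 60483 gene records in the deposited tables, and 29 of them passed the filter on low counts that kept 18424 genes. The 2 that did not pass were SNHG18, with a mean of 2.47 counts per library, and SNHG27, with 0.0667.

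All RNA came from tumoroids of PANC-1, an established human pancreatic ductal adenocarcinoma line of epithelial origin with no engineered allele. In 9 of the 10 groups the tumoroids were hybrids that had taken up synthetic cells, droplet-supported lipid bilayers (DSLBs), whose surface can be coupled to recombinant ectodomains of immune receptors and ligands. In the co-presenting hybrids the bilayer bore PD-1 and, besides it, another of these proteins: the adhesion receptor CD2, CD27, the CD40 ligand CD40L, CTLA4, ICOS, LAG3, or else TIGIT. They are written PD-1/CD2, PD-1/CD27 and so on. A further group carried PD-1 alone, plain DSLB hybrids held uncoupled bilayers, and DSLB-free tumoroids held cancer cells only. The study asked how a protein presented beside PD-1 changes the response of the cancer cells. Each group had 3 cultures, which the study describes as parallel biological replicates, so the p-values below measure the spread among cultures of a single line. The synthetic cells bring no RNA of their own and stand in for T cells only by the ectodomains on their surface.

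The 30 libraries held 21903971 to 60506800 counts. Levels are given as CPM, a gene's counts relative to its library total, unless a sentence names another unit. Of the 6 epithelial markers, EPCAM was at 48.5 to 71.8 CPM, CDH1 at 50 to 97.9 and KRT8 at 2450 to 4050 over the libraries. KRT18 was at 952 to 1840 CPM and KRT19 at 624 to 1530, while KRT7 was low, at 3.06 to 6.15. The T cell gene CD3E and the natural killer cell gene NKG7 were at 0 throughout, and the 6 leukocyte markers summed to 0.496 to 1.38 CPM. The 3 endothelial markers summed to 0.13 to 0.548 CPM, while among the stromal markers COL1A1 was at 354 to 1020 CPM and DCN at 0 to 0.206. Of the genes that encode the 8 presented proteins, 7 stayed under 1 CPM in every library and LAG3 was at 2.96 to 4.61 CPM. The libraries PD-1/LAG3 replicate 3, DSLB-free replicate 2, PD-1 replicate 1 and PD-1/CTLA4 replicate 2 stood apart from the others of their groups, and members whose calls against PD-1 hybrids, or in PD-1 against plain DSLB hybrids, changed without those 4 libraries are given below or under the processing alternatives. In bulk RNA, a change in the share of cells that express a gene and a change in RNA per cell cannot be told apart.

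Most human snoRNAs are not transcribed from promoters of their own. They are cut from introns after the host transcript is spliced, and the spliced exons of an SNHG gene, which encode no long protein, are often removed in the cytoplasm by nonsense-mediated decay when ribosomes engage them. Box C/D snoRNAs typically guide 2′-O-methylation of ribosomal RNA and box H/ACA snoRNAs typically guide its pseudouridylation, while the related scaRNAs act on spliceosomal RNAs in Cajal bodies. Many hosts, GAS5 among them, belong with the ribosomal protein genes to the 5′ terminal oligopyrimidine class, whose transcripts begin with a C and a run of pyrimidines.

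By RefSeq the members hold 146 snoRNA and scaRNA genes, and the host classes below follow what each member carries. Box C/D hosts were 14 members (13 tested), box H/ACA or Cajal body hosts 15, and SNHG27 and SNHG28 have no annotated snoRNA. GAS5 holds 10 SNORD genes, SNHG1 holds 8, ZFAS1 holds SNORD12, SNORD12B and SNORD12C, and SNHG5 holds SNORD50A and SNORD50B. SNHG29 holds SNORD49A, SNORD49B and SNORD65. SNHG3 holds SNORA73A and SNORA73B, and SNHG20 holds SCARNA16. The cargo of 5 hosts on which the results turn is shown to set both families side by side. Capitals mark TGATGA, the core of box C, and CTGA, box D, in the SNORD genes, and the ACA that lies 3 bases from the end in SNORA73A and SCARNA16. The sequences are from GRCh38 with GENCODE spans, 5′ to 3′ on the transcribed strand, and lie at chr20:49278940-49279028 (plus strand, SNORD12C), chr6:85677589-85677658 (minus, SNORD50B), chr17:16440036-16440106 (plus, SNORD49A), chr1:28507366-28507571 (plus, SNORA73A) and chr17:77089307-77089493 (plus, SCARNA16).
SNORD12C in ZFAS1: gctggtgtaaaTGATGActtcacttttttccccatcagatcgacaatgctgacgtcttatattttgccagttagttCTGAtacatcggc
SNORD50B in SNHG5: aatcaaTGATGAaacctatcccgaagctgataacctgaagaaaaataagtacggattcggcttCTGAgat
SNORD49A in SNHG29: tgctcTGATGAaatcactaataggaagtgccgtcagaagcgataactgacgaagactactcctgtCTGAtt
SNORA73A in SNHG3: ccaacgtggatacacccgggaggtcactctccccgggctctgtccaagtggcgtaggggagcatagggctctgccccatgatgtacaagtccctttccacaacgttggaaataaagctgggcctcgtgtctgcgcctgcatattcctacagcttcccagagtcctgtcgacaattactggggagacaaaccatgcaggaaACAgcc
SCARNA16 in SNHG20: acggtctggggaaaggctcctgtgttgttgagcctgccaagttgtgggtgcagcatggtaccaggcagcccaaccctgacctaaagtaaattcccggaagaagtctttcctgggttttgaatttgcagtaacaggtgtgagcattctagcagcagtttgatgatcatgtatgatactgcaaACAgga
The SNORD genes span 70 to 89 bases and SCARNA16 and SNORA73A span 187 and 206. The deposited tables held a record for 135 of the 146, but the mean count of 123 was under 1 read, so the measurements below are of the hosts.

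The annotated start of each host was searched for a C followed by an unbroken run of C or T, at least 5 bases in all and beginning within 5 bases of the RefSeq start, on the transcribed strand only. Of the 27 members with a promoter in the RefSeq table, 13 (48.1%) held such a run. The share was 21.1% over all 27305 promoters and 73.8% over 65 cytosolic ribosomal protein genes. By class it was 6 of 12 box C/D hosts and 7 of 13 box H/ACA or Cajal body hosts. The windows below show 4 hosts with the run, in capitals, and 3 without, each with 20 bases before and 20 after the RefSeq start on GRCh38.p14. They lie at chr20:49278622-49278661 (plus strand, ZFAS1), chr6:85678714-85678753 (minus, SNHG5), chr6:31834896-31834935 (plus, SNHG32), chr17:76557744-76557783 (plus, SNHG16), chr1:173869026-173869065 (minus, GAS5), chr1:28505923-28505962 (plus, SNHG3) and chr17:77088623-77088662 (plus, SNHG20).
ZFAS1: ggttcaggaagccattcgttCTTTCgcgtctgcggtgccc
SNHG5: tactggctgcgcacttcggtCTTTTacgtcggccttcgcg
SNHG32: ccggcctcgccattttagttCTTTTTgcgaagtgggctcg
SNHG16: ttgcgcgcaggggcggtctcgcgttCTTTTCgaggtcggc
GAS5: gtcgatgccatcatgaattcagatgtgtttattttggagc
SNHG3: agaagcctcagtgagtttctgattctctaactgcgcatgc
SNHG20: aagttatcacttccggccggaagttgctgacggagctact
The RefSeq starts of GAS5 and SNHG3 lie outside the spans that GENCODE gives these genes, and a window without the run says only that these letters are not in it. The windows of SNHG29 and SNHG1 held no run either, although GAS5, SNHG29 and SNHG1 were each higher in PD-1 than in plain DSLB hybrids. SNHG4, with a run of 13 bases, did not pass in that comparison. Whether the run goes with the direction of change was not tested.

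The members differed widely in level, and the 9 highest were all box C/D hosts. On TPM, which relates each transcript to all transcripts and corrects for length, SNHG5 led with a mean of 1065 and a range of 815 to 1391 over the 30 libraries. SNHG5 is an lncRNA at chr6:85650491-85678932 on the minus strand. GAS5, known for its accumulation in growth-arrested cells, followed at 465 TPM (327 to 548). SNHG29 averaged 357 TPM, ZFAS1 311 (216 to 392) and SNHG6 190. The ranges of SNHG5 and GAS5 did not overlap, while those of GAS5 and ZFAS1 did. The median of the mean TPM was 109 over the 13 box C/D hosts tested and 15.1 over the 15 box H/ACA or Cajal body hosts. Among the 29 tested members SNHG22 and SNHG28 were lowest, at 0.735 and 0.727 TPM. Added together, the members took a mean of 3242 (PD-1/ICOS) to 3640 TPM (PD-1/CD2) in the co-presenting groups. They took 3442 ± 87.3 TPM in PD-1 hybrids, 2780 ± 119 in plain DSLB hybrids and 2713 ± 77.7 in DSLB-free tumoroids (SD, n = 3 each), or 0.344%, 0.278% and 0.271% of all TPM.

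**Figure D1:**
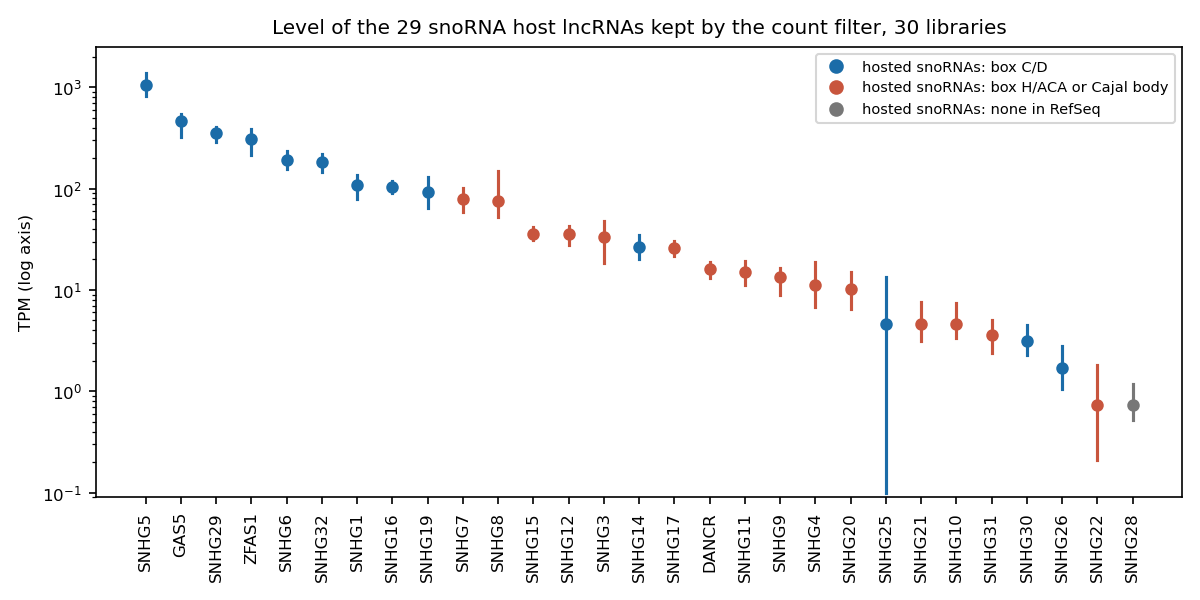
Mean TPM (log axis) of the 29 tested members over the 30 libraries, with bars from the lowest to the highest library and colours for the class of hosted snoRNA. SNHG5 lies highest at 1065 TPM and SNHG28 lowest at 0.727, and the bar of SNHG25 is clipped because its lowest value was 0.

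Asked whether a host varied over the 10 groups more than among replicates, edgeR's quasi-likelihood F test passed 18 of 29 members (62.1%) at a Benjamini-Hochberg adjusted p under 0.05, against 41.0% of all genes. GAS5 had the smallest adjusted p (1.741e-07), followed by SNHG1 (1.758e-06), ZFAS1 (8.245e-06), SNHG3 (9.935e-06) and SNHG20 (3.116e-05). The 18 comprised 9 of 13 box C/D hosts, 8 of 15 box H/ACA or Cajal body hosts and SNHG28. The levels fell into distinct patterns. In the first, every group with PD-1 on its synthetic cells had a mean above both control groups. The abundant box C/D hosts showed it, and so did SNHG7, SNHG8, SNHG11 and SNHG12 of the box H/ACA class. Group means of SNHG8 ran from 21.1 (PD-1/ICOS) to 30.8 CPM (PD-1/LAG3), against 17.8 in plain DSLB and 17.8 in DSLB-free. In the other, PD-1 hybrids were the low group and several co-presenting hybrids lay above them. SNHG3 and SNHG20 showed it most clearly.

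PD-1 hybrids were next set against plain DSLB hybrids, whose bilayers were left uncoupled. No group bore a coupled protein without PD-1, so PD-1 itself and the coupling of any protein cannot be told apart. The same limit holds wherever PD-1-bearing hybrids are set against a control group. In this comparison 10 members were higher and 2 lower of the 29, where 22.0% of all genes passed edgeR's test (11.3% higher and 10.7% lower). The higher ones were GAS5, ZFAS1, SNHG5, SNHG29, SNHG6, SNHG16, SNHG1, SNHG32, SNHG8 and SNHG28. The lower ones were SNHG20 and SNHG3. By class, 8 box C/D hosts were higher and none lower, with a median log2 fold change of 0.29, and 1 of the box H/ACA or Cajal body hosts (SNHG8) was higher and 2 lower, with a median of -0.05. The median over all genes was 0.00 and over the 29 members 0.10. The difference between the classes was not tested.

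ZFAS1 (ENSG00000177410.11, chr20:49278178-49299600, plus strand) lies antisense to ZNFX1. It measured 119, 106 and 111 CPM in PD-1 hybrids, against 70.2, 80.4 and 76.6 in plain DSLB hybrids. Every PD-1 library lay above every plain DSLB library, and the log2 fold change was 0.57 (SE 0.11, edgeR adjusted p = 0.00063). GAS5 (ENSG00000234741.6, chr1:173858559-173868882, minus strand) measured 195, 192 and 203 CPM in PD-1 hybrids, against 140, 152 and 146 in plain DSLB hybrids. Its groups were as cleanly separate, with a log2 fold change of 0.43 (SE 0.07, edgeR adjusted p = 0.000105). SNHG5 (ENSG00000203875.9) measured 338, 293 and 308 CPM in PD-1 hybrids, against 208, 227 and 213 in plain DSLB hybrids. The lowest PD-1 library was far above the highest plain DSLB library, and the log2 fold change was 0.53 (SE 0.12, edgeR adjusted p = 0.00247).

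SNHG29 (ENSG00000175061.16, chr17:16438767-16480249, plus strand) overlaps LRRC75A on the opposite strand. It measured 229, 219 and 210 CPM in PD-1 hybrids, against 154, 176 and 168 in plain DSLB hybrids, a log2 fold change of 0.40 (SE 0.09, edgeR adjusted p = 0.00178). SNHG6, which carries SNORD87, measured 51.2, 47.5 and 46.6 CPM in PD-1 hybrids, against 32.9, 36 and 36.8 in plain DSLB hybrids, a log2 fold change of 0.46 (SE 0.10, edgeR adjusted p = 0.00185). Neither gene's groups overlapped. SNHG16 (ENSG00000163597.13, chr17:76557727-76670985, plus strand), the host of SNORD1A, SNORD1B and SNORD1C, measured 89.9, 85.6 and 83 CPM in PD-1 hybrids, against 69.1, 71.7 and 71.4 in plain DSLB hybrids, with a log2 fold change of 0.29 (SE 0.07, edgeR adjusted p = 0.00439). The plain DSLB libraries of SNHG16 lay closer together than the PD-1 libraries, and the groups were again separate.

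SNHG1 (ENSG00000255717.5, chr11:62851978-62855953, minus strand) measured 64.7, 70.9 and 79 CPM in PD-1 hybrids, against 53.8, 61.8 and 57.7 in plain DSLB hybrids, with a log2 fold change of 0.31 (SE 0.09, edgeR adjusted p = 0.0106). SNHG32 (ENSG00000204387.11, chr6:31834608-31839766, plus strand), the host of SNORD48 and SNORD52, measured 92.3, 98.1 and 100 CPM in PD-1 hybrids, against 78.4, 84.9 and 80.5 in plain DSLB hybrids, a log2 fold change of 0.25 (SE 0.08, edgeR adjusted p = 0.029). The gaps between the groups were narrower for these hosts than for those above. SNHG8 (ENSG00000269893.5, chr4:118278703-118285316, plus strand), which carries SNORA24 and lies antisense to PRSS12, measured 29, 22.8 and 25.9 CPM in PD-1 hybrids, against 16, 18.6 and 18.8 in plain DSLB hybrids, a log2 fold change of 0.54 (SE 0.19, edgeR adjusted p = 0.0449). SNHG28 (ENSG00000188004.8, chr1:159834480-159855071, minus strand), which shares its strand with VSIG8, measured 1.15, 1.09 and 1.4 CPM in PD-1 hybrids, against 0.768, 0.921 and 0.724 in plain DSLB hybrids, a log2 fold change of 0.58 (SE 0.21, edgeR adjusted p = 0.0495). Both were separate between the groups but close to the threshold.

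The 2 lower members are hosts of RNAs from the H/ACA family. SNHG20 (ENSG00000234912.8, chr17:77086716-77099902, plus strand) measured 7.72, 7.94 and 9.39 CPM in PD-1 hybrids, against 11.1, 11.4 and 11.6 in plain DSLB hybrids. The plain DSLB libraries were almost equal and all above the PD-1 libraries, and the log2 fold change was -0.45 (SE 0.13, edgeR adjusted p = 0.0134). SNHG3 (ENSG00000242125.3, chr1:28505980-28510892, plus strand) measured 29, 37.7 and 41.8 CPM in PD-1 hybrids, against 45.5, 50.3 and 48.3 in plain DSLB hybrids. All 3 PD-1 libraries lay below, the lowest being replicate 1, and the log2 fold change was -0.41 (SE 0.12, edgeR adjusted p = 0.0157). SNHG3 shares its strand and its locus with the protein-coding RCC1, and SNHG20 with SEC14L1. The estimated counts depend on how the authors' software divided reads among such genes, although its posterior SD averaged at most 8.66 reads for any member.

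**Figure D2:**
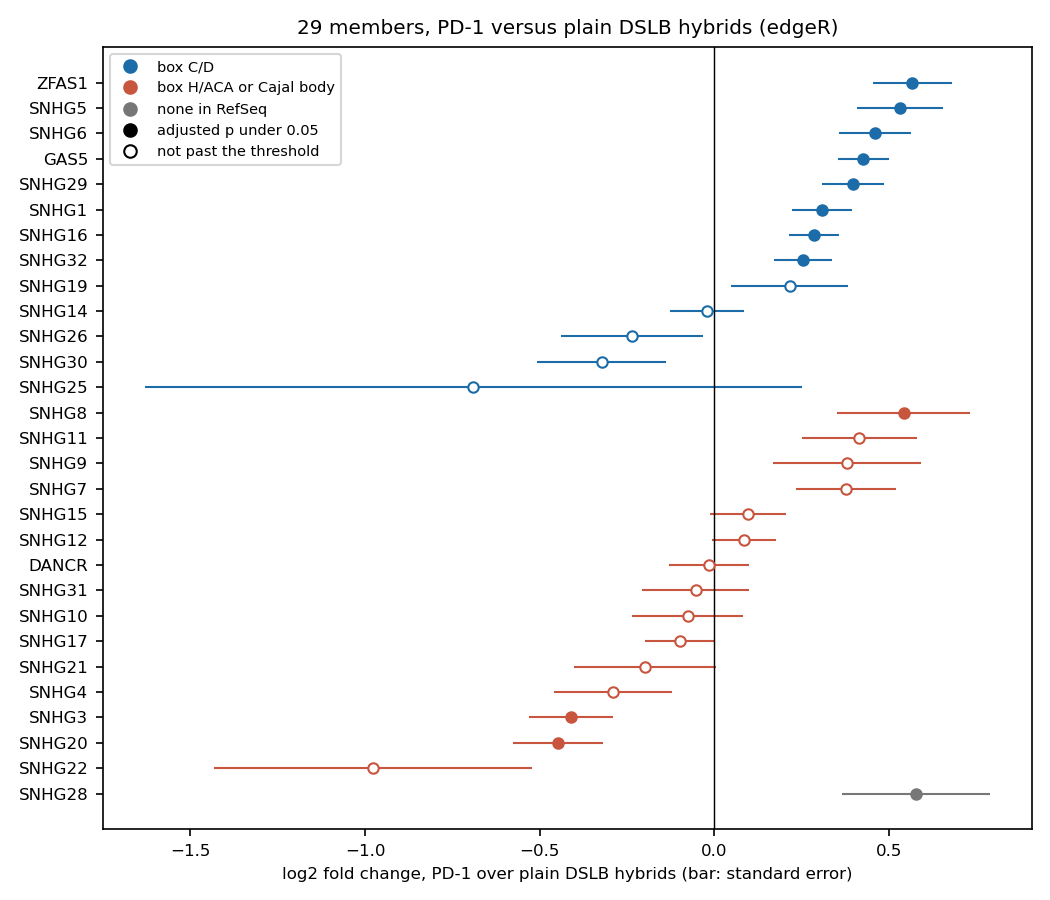
Log2 fold change (x axis, bars ± SE of the edgeR fit) of the 29 tested members in PD-1 hybrids over plain DSLB hybrids, with filled points for adjusted p under 0.05 and colours for the class of hosted snoRNA. The 10 filled points to the right reach from 0.25 (SNHG32) to 0.58 (SNHG28), and the 2 to the left are SNHG3 at -0.41 and SNHG20 at -0.45.

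The other 17 members did not pass. Nearest were SNHG7 (log2 fold change 0.38, edgeR adjusted p = 0.0613) and SNHG11 (0.42, adjusted p = 0.0732). SNHG7 passed with DESeq2 (adjusted p = 0.0496), in a fit of the 6 libraries compared (0.000587), with no filter (0.000253), on TPM with limma (0.0207) and without the 4 libraries that stood apart (0.33, edgeR adjusted p = 0.0155). SNHG11 passed in the fit of 6 libraries (adjusted p = 0.0023) and with no filter (0.00421). DANCR, the host of SNORA26 (ENSG00000226950.5, chr4:52712325-52723623, plus strand) and known for keeping epidermal progenitors undifferentiated, measured 7.75, 8.77 and 7.87 CPM in PD-1 hybrids, against 7.76, 7.9 and 9.11 in plain DSLB hybrids. These libraries overlapped entirely, and the 95% interval of its log2 fold change was -0.25 to 0.22. SNHG4, a box H/ACA host, was at -0.29 (edgeR adjusted p = 0.226). SNHG14, which carries 83 SNORD genes in the imprinted Prader-Willi region, was at -0.02 (adjusted p = 0.912). Of the 29 members 12 had all 3 PD-1 libraries above all 3 plain DSLB libraries, against 23.4% of all genes, and 3 had them all below, against 23.5%.

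GAS5, ZFAS1, SNHG5, SNHG29, SNHG6 and SNHG16 passed under 15 of 15 alternatives, and the rest were less stable. Of the same 15, SNHG20 passed under 13, SNHG1 and SNHG3 under 11 each, SNHG32 under 8, SNHG8 under 6 and SNHG28 under 2. Without PD-1 replicate 1 the count was 7, all higher, with SNHG3 at -0.30 (edgeR adjusted p = 0.0965) and SNHG20 at -0.42 (adjusted p = 0.0508). Without plain DSLB replicate 1 or PD-1 replicate 3 it was 8. SNHG3 also missed the threshold without plain DSLB replicate 2 (adjusted p = 0.0652), and SNHG20 without PD-1 replicate 2 (adjusted p = 0.0606). SNHG1 missed it without plain DSLB replicate 1 (adjusted p = 0.0633) or PD-1 replicate 3 (adjusted p = 0.0717). SNHG32 passed only with plain DSLB replicate 2 left out among these fits, SNHG8 only with PD-1 replicate 2 left out, and SNHG28 in none, with highest adjusted p of 0.095, 0.186 and 0.159. Without the 4 libraries that stood apart, SNHG28 (0.61, edgeR adjusted p = 0.0565) and SNHG3 (-0.28, adjusted p = 0.0775) missed the threshold. On the deposited TPM, with limma, the split of the calls changed to 7 higher and 4 lower.

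Other measures moved with this comparison. The share of counts in genes under 1000 bases averaged 18.2% in PD-1 hybrids and 16.2% in plain DSLB hybrids, and over all genes the median log2 fold change was 0.14 for genes under 500 bases, 0.15 from 500 to 1000 bases, 0.06 from 1000 to 2000 bases and -0.08 above 2000 bases. The members had medians of 0.42 for the 8 shortest, 0.17 for the 12 from 500 to 1000 bases, -0.06 for the 6 from 1000 to 2000 and -0.02 for the 3 longest. With a length trend removed from each library, an alternative added after seeing the data, 9 of the 29 members passed, 7 higher and 2 lower. In that fit 20.9% of all genes passed in either direction. The share of mitochondrial counts was 2.66% to 4% in PD-1 hybrids and 4.73% to 5.19% in plain DSLB hybrids, and its part in the result was not tested.

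The plain DSLB and DSLB-free groups served as controls for the synthetic cells themselves. None of the 29 members passed edgeR's test between them, against 0.0109% of all genes. DESeq2 also called none, and 2 members had an unadjusted p under 0.05 in edgeR (6.10% of all genes), SNHG22 at a log2 fold change of 1.08 (adjusted p = 0.803) and SNHG17 at -0.21 (adjusted p = 0.804). GAS5 measured 140, 152 and 146 CPM in plain DSLB hybrids, against 138, 139 and 124 in DSLB-free tumoroids. These libraries overlapped, and the 95% interval of the log2 fold change was -0.02 to 0.28.

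With both controls pooled, 6 members had all 24 libraries of PD-1-bearing hybrids above all 6 control libraries. They were SNHG5, GAS5, SNHG29, ZFAS1, SNHG6 and SNHG1, all box C/D hosts, and they make up 20.7% of the members, against 4.43% of all genes. The box H/ACA hosts SNHG7 and SNHG8 missed narrowly. Their lowest PD-1-bearing libraries were at 33.0 and 19.6 CPM and their highest controls at 33.5 and 19.9. No member had all 24 below, against 5.11% of all genes. GAS5 ran from 177 to 225 CPM over the 21 co-presenting libraries (median 192), with the DSLB-free libraries at 138, 139 and 124. ZFAS1 ran from 86.9 to 149 CPM (median 110), with DSLB-free at 69.4, 69 and 73.7. SNHG5 ran from 252 to 406 CPM (median 282), with DSLB-free at 196, 240 and 193. The margin for SNHG5 was narrow, with DSLB-free replicate 2 close to the lowest hybrid. SNHG29 ran from 191 to 258 CPM, with DSLB-free at 152, 165 and 147. SNHG6 ran from 38.4 to 56.1 CPM, with DSLB-free at 31.6, 35.4 and 36.9. The host of the intronic SNORD22 and SNORD25 to SNORD31, SNHG1, ran from 68.5 to 93.1 CPM in the co-presenting libraries, with DSLB-free at 55.5, 51.9 and 56.6. The highest SNHG5 and ZFAS1 values both came from PD-1/LAG3 replicate 3, a library that stood apart and had 1.71% mitochondrial counts. In SNHG1 the lowest PD-1-bearing value, 64.7 CPM, was PD-1 replicate 1, just above the 61.8 CPM of plain DSLB replicate 2.

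**Figure D3:**
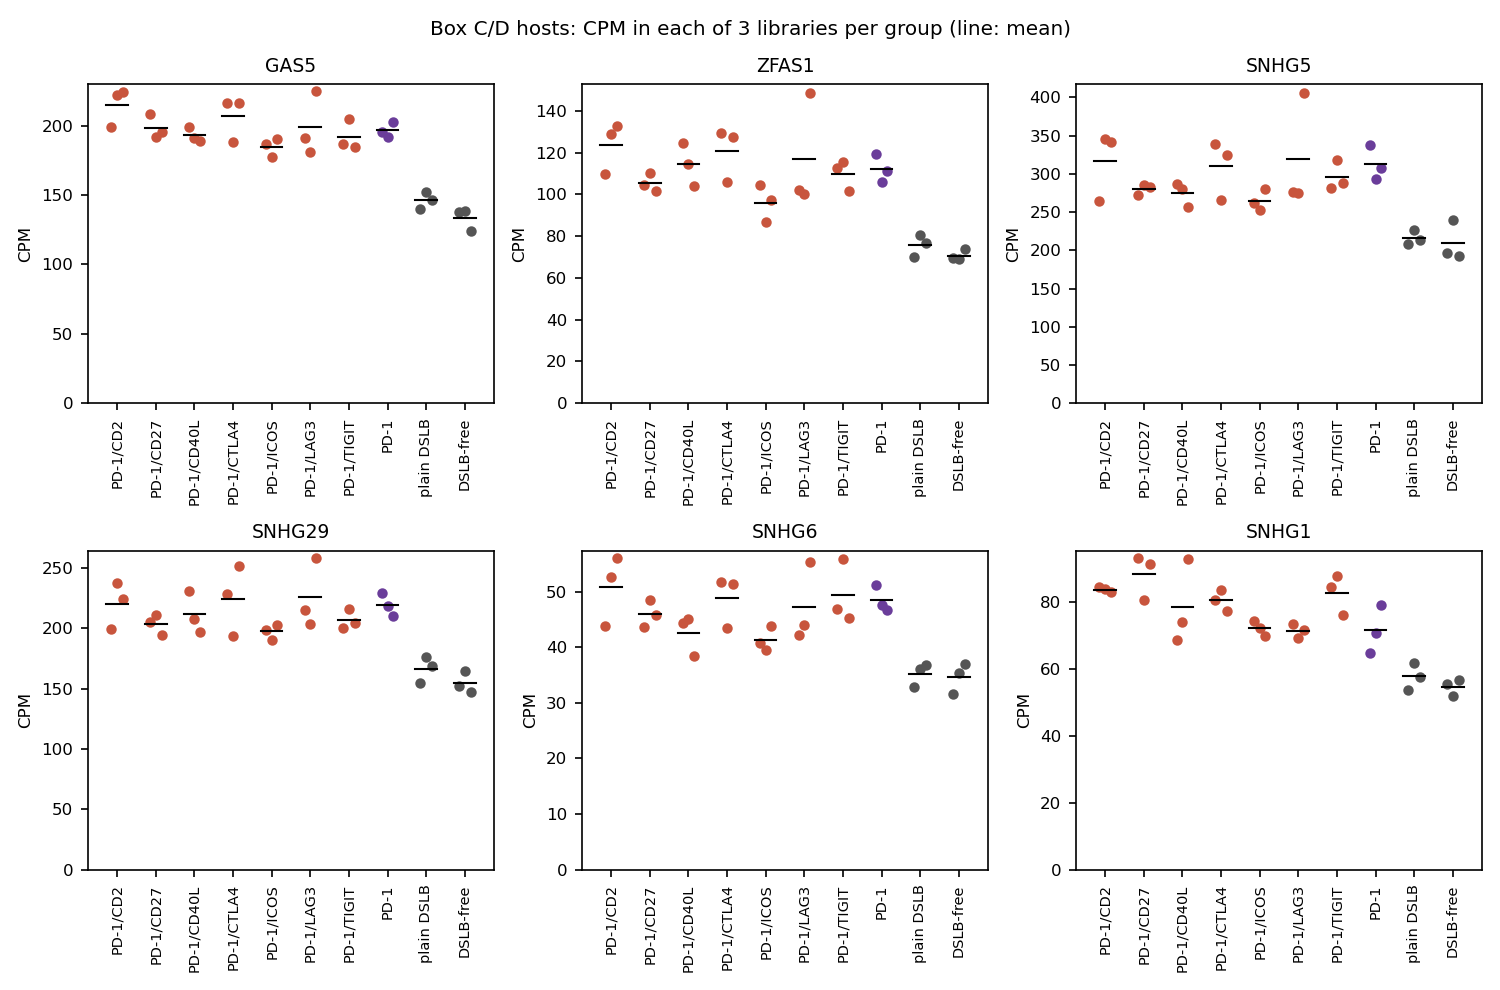
CPM of 6 box C/D hosts in each of the 30 libraries, by group, with the 7 co-presenting groups and PD-1 to the left of plain DSLB and DSLB-free, points for libraries and lines for group means. In each panel all PD-1-bearing points lie above all 6 control points, as for GAS5, where the lowest hybrid is at 177 CPM and the highest control at 152.

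Each co-presenting group was also set against plain DSLB hybrids, a reference added after seeing the data, and these comparisons share the 3 plain DSLB libraries. No member was lower in any of the 7 comparisons, where 9.80% to 17.2% of all genes were. By edgeR 16 members were higher in PD-1/CD2 hybrids (14.1% of all genes), 15 in PD-1/CD27 (12.4%), 10 for PD-1/CD40L (13.2%), 16 in PD-1/CTLA4 (17.0%), 5 in PD-1/ICOS (9.81%), 10 in PD-1/LAG3 (16.2%) and 11 in PD-1/TIGIT (10.9%). GAS5, SNHG1, SNHG29 and ZFAS1 were higher in 7 of 7. Their log2 fold changes were 0.34 to 0.56, 0.31 to 0.61, 0.25 to 0.44 and 0.34 to 0.71. SNHG5, SNHG16, SNHG11 and SNHG6 were higher in 6 and SNHG32 in 5. SNHG12, SNHG7 and SNHG8 were higher in 4, and SNHG19 and SNHG28 in 3. SNHG3 and SNHG20 were higher in PD-1/CD2 (0.44 and 0.38) and PD-1/CD27 hybrids (0.48 and 0.44). SNHG4 (0.45) and SNHG14 (0.31) were higher in PD-1/CD27 alone, and SNHG15 and SNHG9 in PD-1/CTLA4 alone. The remaining 9, DANCR among them, passed in none.

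These counts moved when single libraries were left out. The lowest were 8 in PD-1/CD27 without PD-1/CD27 replicate 1 (9 without plain DSLB replicate 1 or 3), 4 in PD-1/CD40L without PD-1/CD40L replicate 1 (6 without any plain DSLB library), 10 in PD-1/CTLA4 without plain DSLB replicate 1 or PD-1/CTLA4 replicate 3, and 5 in PD-1/TIGIT without PD-1/TIGIT replicate 2 (6 without plain DSLB replicate 1). PD-1/ICOS kept 1 without plain DSLB replicate 1, 2 without plain DSLB replicate 3 or PD-1/ICOS replicate 1 or 3, and 3 without PD-1/ICOS replicate 2. PD-1/CD27 fell to 10 without PD-1/CD27 replicate 3. With the length trend removed the higher counts were 11, 8, 8, 9, 1, 7 and 6 in the order of the groups above, and 1 member was lower in PD-1/CD2 and 1 in PD-1/CTLA4. In either direction 25.2%, 23.9%, 24.6%, 28%, 21.3%, 26.1% and 17.6% of all genes passed in these fits, in the same order.

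The central comparison of the study, co-presenting hybrids against PD-1 hybrids, asks what the added protein does beyond PD-1, and all 7 contrasts share the 3 PD-1 libraries. By the paper's methods PD-1 and the added protein were premixed and coupled to the same lipid. The amount of PD-1 or of total protein on the bilayer may therefore differ from PD-1 hybrids. Such a difference and an effect of the added protein cannot be told apart. The members past edgeR's test were SNHG3, SNHG20 and SNHG4, each a host of H/ACA-type RNAs, and each was higher. In PD-1/CD2 hybrids 2 members were higher and none lower, where 1.23% of all genes passed (0.733% higher and 0.499% lower). In PD-1/CD27 hybrids 3 were higher and none lower, where 2.29% of all genes passed (2.05% higher and 0.233% lower). In PD-1/CTLA4 hybrids SNHG3 was higher, where 0.0434% of all genes passed.

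SNHG3 measured 63.3, 58.8 and 74.2 CPM in PD-1/CD2, 73, 64.6 and 63 in PD-1/CD27 and 66.6, 48.4 and 59.9 in PD-1/CTLA4 hybrids, against 29, 37.7 and 41.8 in PD-1 hybrids. All of these co-presenting libraries lay above all PD-1 libraries, PD-1/CTLA4 replicate 2 by the smallest margin. The log2 fold change was 0.85 in PD-1/CD2 (SE 0.12, edgeR adjusted p = 0.000948), 0.89 in PD-1/CD27 (SE 0.12, adjusted p = 0.000345) and 0.69 in PD-1/CTLA4 (SE 0.12, adjusted p = 0.0225). In the other groups SNHG3 measured 55.6, 49.2 and 57 CPM in PD-1/CD40L hybrids, 57.9, 48.3 and 43.4 in PD-1/ICOS, 43.5, 41.8 and 39.9 in PD-1/LAG3 and 38.3, 45.4 and 41.4 in PD-1/TIGIT hybrids. Its log2 fold change over PD-1 was 0.58 for PD-1/CD40L (95% interval 0.33 to 0.83, edgeR adjusted p = 0.0673), 0.46 for PD-1/ICOS (0.21 to 0.71, adjusted p = 0.38), and 0.21 in both PD-1/LAG3 (-0.04 to 0.45) and PD-1/TIGIT (-0.04 to 0.46). DSLB-free tumoroids stood at 52.8, 50 and 48.5 CPM, close to plain DSLB hybrids, so the PD-1 group was the lowest of the 10 on average.

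SNHG20 gave the same order with smaller counts. It measured 14.4, 13.2 and 17.1 CPM in PD-1/CD2 and 14.8, 16 and 15.6 in PD-1/CD27 hybrids, against 7.72, 7.94 and 9.39 in PD-1 hybrids. The groups were separate, with log2 fold changes of 0.83 (SE 0.13, edgeR adjusted p = 0.00224) and 0.89 (SE 0.13, adjusted p = 0.00047). PD-1/CTLA4 hybrids held 14.6, 10.3 and 13.4 CPM (0.61, edgeR adjusted p = 0.086), PD-1/CD40L hybrids 12.4, 11.2 and 13.5 (0.57, adjusted p = 0.0854), and PD-1/ICOS hybrids 13.7, 11.7 and 9.55 (0.48, adjusted p = 0.38). Each of these libraries was above the 3 PD-1 libraries, but none of the contrasts passed. PD-1/LAG3 hybrids measured 10, 10.6 and 8.89 CPM and PD-1/TIGIT hybrids 8.39, 10.9 and 9.66, which overlapped with PD-1. DSLB-free tumoroids stood at 13.1, 13 and 12.2 CPM.

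SNHG4 (ENSG00000281398.1, chr5:139274102-139284899, plus strand) shares its strand with MATR3, a nuclear matrix protein gene. It measured 8.3, 5.88 and 6.02 CPM in PD-1/CD27 hybrids, against 3.7, 3.77 and 4.69 in PD-1 hybrids. The groups were separate, with PD-1/CD27 replicate 1 well above the others, and the log2 fold change was 0.75 (SE 0.17, edgeR adjusted p = 0.0137). In PD-1/CD2 hybrids SNHG4 measured 6.34, 4.69 and 6.65 CPM, and replicate 2 was level with the highest PD-1 library. Plain DSLB hybrids held 5.59, 4.34 and 4.88 CPM and DSLB-free tumoroids 5.14, 4.09 and 3.8.

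**Figure D4:**
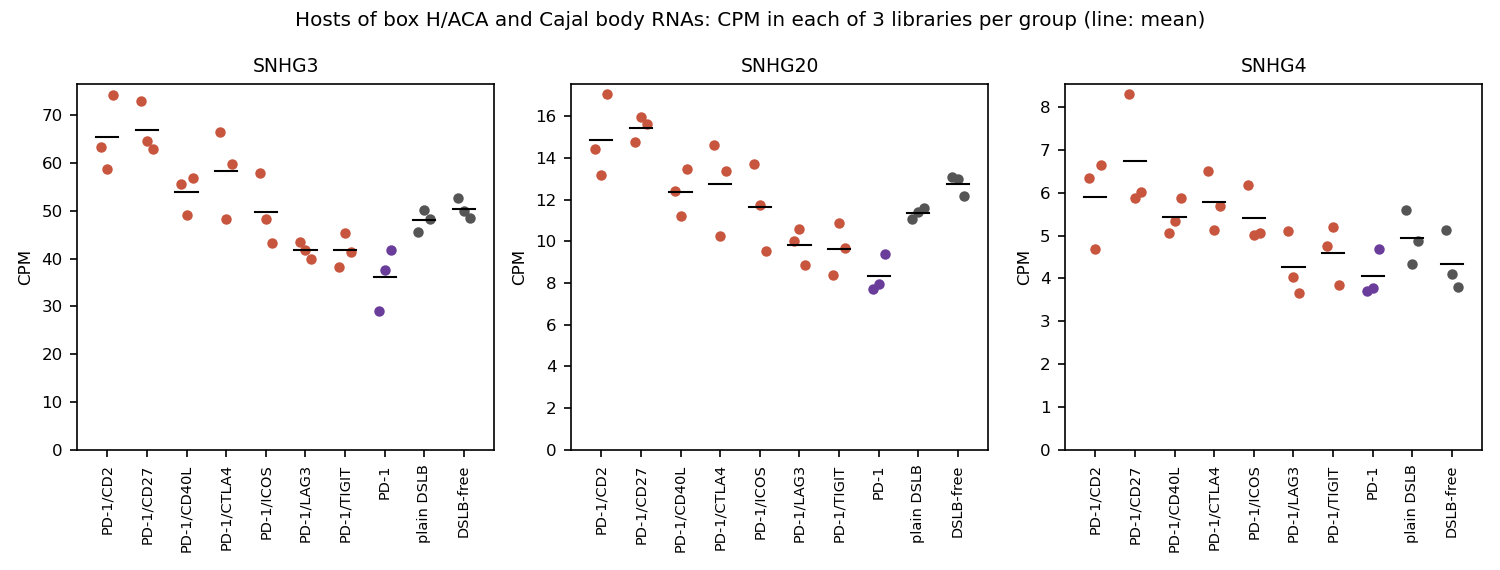
CPM of SNHG3, SNHG20 and SNHG4 in each of the 30 libraries, by group, with points for libraries and lines for group means. For SNHG3 and SNHG20 the PD-1 group has the lowest mean (36.2 and 8.35 CPM) and PD-1/CD27 the highest (66.9 and 15.5 CPM).

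No member passed edgeR's test against PD-1 hybrids in PD-1/CD40L (0.0109% of all genes passed), PD-1/ICOS, PD-1/LAG3 or PD-1/TIGIT hybrids (0% of all genes in each). At an unadjusted p under 0.05 there were 5, 4, 0 and 2 members (11.3%, 10.2%, 5.71% and 3.70% of all genes), and DESeq2 called 2, 0, 0 and 0. Closest to the threshold in PD-1/CD27 were SNHG1 at 0.31 (adjusted p = 0.0535), SNHG12 at 0.32 (adjusted p = 0.0616) and SNHG21 at 0.68 (adjusted p = 0.0647). SNHG12, the host of SNORA16A, SNORA44, SNORA61 and SNORD99, measured 26.6, 23.8 and 24.8 CPM in PD-1/CD27 hybrids, against 17.1, 20.2 and 23.2 in PD-1 hybrids. Its groups were separate by a small margin. The box C/D hosts that were higher in PD-1 than in plain DSLB hybrids passed in none of the 7 contrasts. DANCR lay between -0.13 and 0.17 on the log2 scale in all 7. The median log2 fold change of the members was 0.14 in PD-1/CD2, 0.12 in PD-1/CD27 and 0.18 in PD-1/CTLA4, with all genes at -0.01, 0.00 and 0.00.

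**Figure D5:**
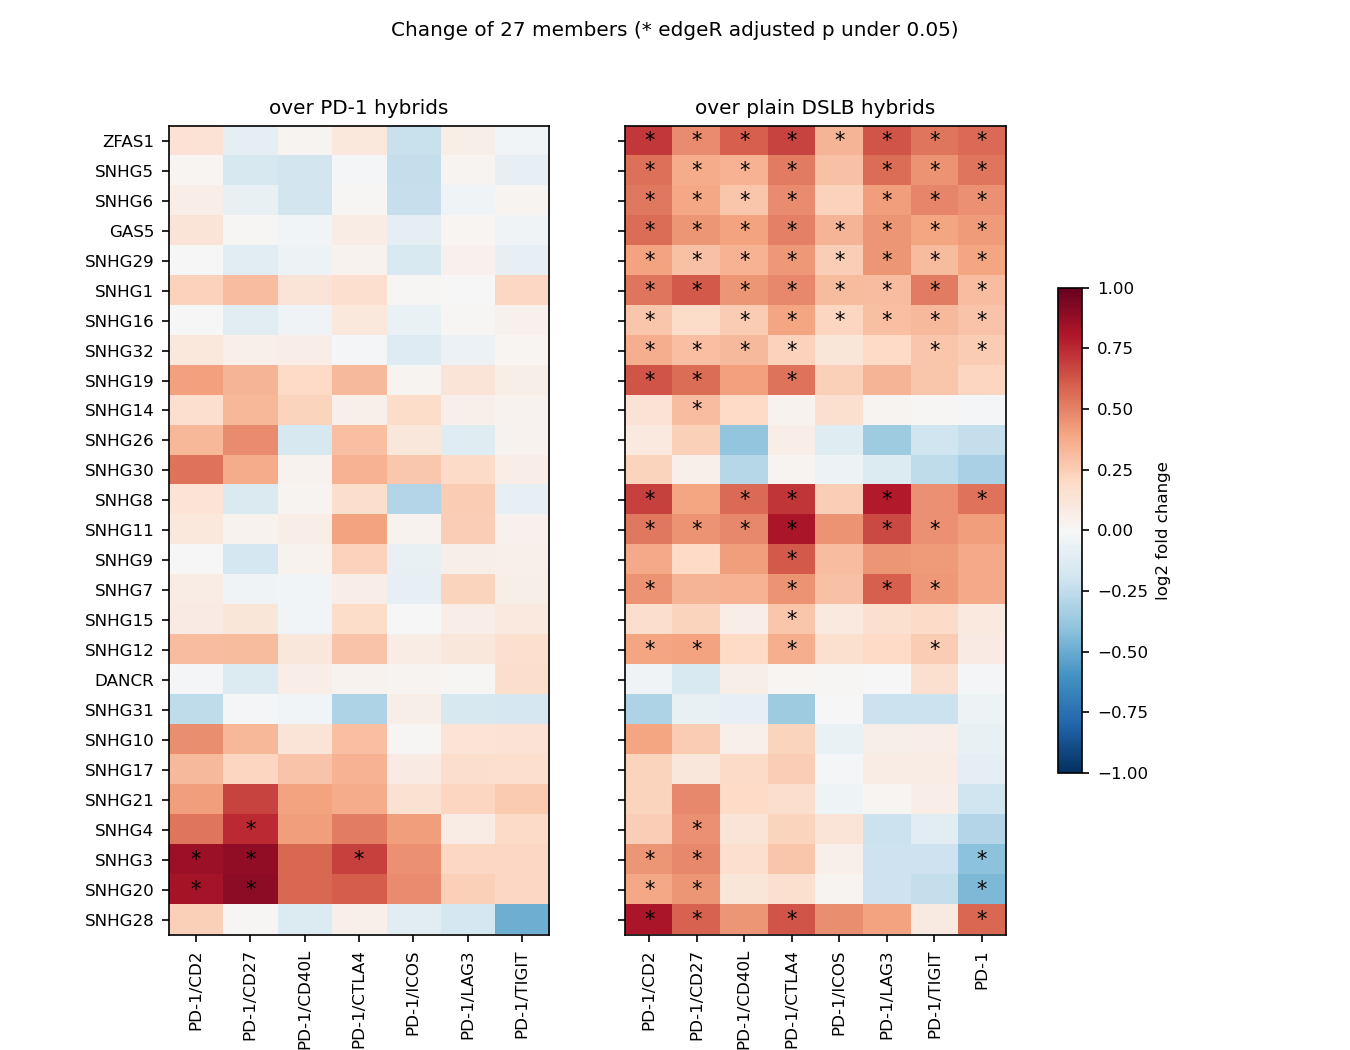
Log2 fold changes of 27 members (SNHG22 and SNHG25 left out for their low counts) in the 7 co-presenting groups over PD-1 hybrids (left) and in those groups and PD-1 over plain DSLB hybrids (right), with a star for edgeR adjusted p under 0.05. Stars fall on SNHG3, SNHG20 and SNHG4 in the left panel, and on GAS5, SNHG1, SNHG29 and ZFAS1 in every column of the right panel.

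SNHG3 and SNHG20 in PD-1/CD27 hybrids passed under 16 of 16 alternatives. In PD-1/CD2 hybrids SNHG3 missed the threshold only in a fit of the 6 libraries compared (edgeR adjusted p = 0.0633) and SNHG20 only on TPM with limma (adjusted p = 0.0755). In PD-1/CTLA4 hybrids SNHG3 passed under 9 of 16 alternatives. It missed the threshold in the fit of 6 libraries (edgeR adjusted p = 0.187), on TPM with limma (0.119), against plain DSLB in place of PD-1 (0.28, adjusted p = 0.0768), when replicate 1 or replicate 3 of that group was left out (edgeR adjusted p = 0.197 and 0.112) and when PD-1 replicate 1 or 2 was (0.263 and 0.0922). SNHG4 in PD-1/CD27 hybrids passed under 12 of 16, and missed it without the 4 libraries that stood apart (edgeR adjusted p = 0.0882), PD-1 replicate 1 (0.135), PD-1 replicate 2 (0.0761) or PD-1/CD27 replicate 1 (0.164). Without the 4 libraries SNHG17 passed in PD-1/CD2 hybrids (0.36, edgeR adjusted p = 0.0371). With a library left out further calls appeared: SNHG1 and SNHG12 in PD-1/CD27 without PD-1 replicate 3 and SNHG1 and SNHG21 without PD-1/CD27 replicate 2, for a count of 5 each, SNHG17 and SNHG20 in PD-1/CTLA4 without its replicate 2, for a count of 3, and SNHG3 in PD-1/CD40L without PD-1 replicate 3 (edgeR adjusted p = 0.0475).

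MALAT1, an abundant lncRNA retained in the nucleus, passed edgeR's test over PD-1 hybrids in the same groups as SNHG3. It ranged from 1547 to 2533 CPM in PD-1/CD2, 1483 to 2393 in PD-1/CD27 and 2046 to 2869 in PD-1/CTLA4 hybrids. PD-1 hybrids were at 1029 to 1128 CPM. The other co-presenting groups also lay above them, at 1270 to 2607 CPM in PD-1/CD40L and 1320 to 1623 in PD-1/ICOS. PD-1/LAG3 hybrids held 1212 to 1485 CPM and PD-1/TIGIT hybrids 1324 to 1809. Unlike SNHG3, MALAT1 was lower in plain DSLB hybrids than in PD-1 hybrids, at 895 to 967 CPM. Mitochondrial counts took 4.02% to 5.69% in PD-1/CD2 and 5.66% to 6.34% in PD-1/CD27, against 2.66% to 4% in PD-1 hybrids. They were also above PD-1 in PD-1/CD40L (5.05% to 7%), PD-1/CTLA4 (4.2% to 6.15%), PD-1/ICOS (4.18% to 5.08%) and PD-1/TIGIT hybrids (4.3% to 4.6%). PD-1/LAG3 hybrids, at 1.71% to 4.56%, overlapped with PD-1. The part of MALAT1 or of mitochondrial counts in the result was not tested.

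Only 2 of the hosted RNAs passed the filter on low counts, SNORA73B with a mean of 26.2 reads and SCARNA13 with 17.9. SNORA73B, the other snoRNA in SNHG3, had a log2 fold change over PD-1 hybrids of 1.15 in PD-1/CD2 (edgeR adjusted p = 0.148) and 1.29 in PD-1/CD27 (adjusted p = 0.0734). SCARNA13, held by SNHG10, was at 1.00 in PD-1/CD2 (adjusted p = 0.152) and 1.04 in PD-1/CD27 (adjusted p = 0.111). Neither passed, and at these counts mature snoRNAs or scaRNAs and reads from the host intron cannot be told apart.

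RSEM's effective length of a gene is weighted by its isoforms, so it can move where the isoform mix moves. Over the 10 groups limma's moderated F test on its log2 passed none of the 29 members, against 0.711% of all genes. Without the 4 libraries that stood apart it passed GAS5 (adjusted p = 0.0355), and 2 had an unadjusted p under 0.05 in the full set, GAS5 with library values from 552 to 615 bases (adjusted p = 0.173) and SNHG26 from 625 to 874 bases (adjusted p = 0.192).

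Lists of related genes were read beside the hosts. Of 30 protein-coding genes that host snoRNAs, 15 were higher and 1 (DKC1) lower in PD-1 than in plain DSLB hybrids, with a median log2 fold change of 0.27, where 11.3% of all genes were higher and 10.7% lower. The ribosomal proteins RPL4 (0.48), RPL5 (0.33) and RPL10 (0.37) and the ribosomal scaffold RACK1 (0.42) had the smallest adjusted p. Of 18 snoRNP core proteins and assembly factors 1 was higher, NOP10 (0.38), and 3 were lower, the box C/D assembly factor ZNHIT6 (-0.48) and the H/ACA proteins GAR1 (-0.34) and DKC1 (-0.23). NOP10 is an H/ACA protein too, and 4 of 18 lies near the 22.0% of all genes that passed. Of 16 factors of nonsense-mediated decay none was higher and 5 were lower, among them the helicase UPF1 (-0.24), the kinase SMG1 (-0.49), SMG5 (-0.25) and UPF3B (-0.31). The part of these factors in the level of the hosts was not tested. Of 5 nuclear-retained lncRNAs 2 were lower, MEG3 (-0.77) and KCNQ1OT1 (-1.04), as were 3 of 13 mitochondrially encoded mRNAs. Of the 6 epithelial markers 3 were higher, KRT19 (0.90, edgeR adjusted p = 1.365e-06), KRT18 (0.52) and KRT8 (0.49), and 2 lower, CDH1 among them (-0.73, adjusted p = 3.986e-08). The monocyte gene CD14 was higher (1.09, edgeR adjusted p = 0.00193) at levels of 0.238 to 1.12 CPM over all libraries, and the stromal COL1A1 was lower (-0.57, adjusted p = 0.00506). The endothelial markers and the genes of the presented proteins held no call, and the part of these markers in the result was not tested.

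Set against PD-1 hybrids, the same lists gave few calls. UPF1 was lower in PD-1/CD2 (-0.29, edgeR adjusted p = 0.0114) and in PD-1/CD27 hybrids (-0.25, adjusted p = 0.0131). Among the protein-coding hosts TAF1D was higher (0.30, adjusted p = 0.0406) and HSPA8 lower (-0.34, adjusted p = 0.0445) in PD-1/CD2, and none passed in the other 6 groups. The medians of these hosts were -0.09 in PD-1/CD2 and -0.15 in PD-1/CD27 hybrids. No snoRNP factor passed in any of the 7 contrasts. MALAT1 was higher in PD-1/CD2 (0.90, adjusted p = 0.0317), PD-1/CD27 (0.90, adjusted p = 0.0227) and PD-1/CTLA4 hybrids (1.23, adjusted p = 0.0226). The mitochondrial MT-ND6 was higher in PD-1/CD2 (1.41, edgeR adjusted p = 0.0131) and PD-1/CD27 hybrids (1.40, adjusted p = 0.00774), and MT-ND4L in PD-1/CD27 hybrids (0.85, adjusted p = 0.0491). Their part in the result was not tested.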

How the data were processed

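Poly(A) or ribosomal RNA selection is not given in the sources used here. Libraries were made from 150 ng of total RNA with a directional kit and sequenced as single reads of 75 nt. The authors checked reads with FastQC 0.11.2, used SAMtools 1.3.1 and Trim Galore 0.3.3, and deposited for each library the expected counts that RSEM estimated per gene after STAR alignment to hg38. The deposited TPM values and effective lengths come from the same RSEM run by the authors and are scaled by isoform length. RSEM's posterior SD of each count was read beside them. Neither the annotation release nor how strand was handled is given in the sources used here. Where a host overlaps another gene, on either strand, the counts of both are uncertain. Of the 60483 records, 56321 matched a symbol.

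After rounding, expected counts were tested in R 4.3.3 with edgeR 4.0.16: filterByExpr by group, TMM scaling, and a robust quasi-likelihood fit with a mean for each of the 10 groups over all 30 libraries. P-values were Benjamini-Hochberg adjusted over the 18424 genes kept, with a threshold of 0.05. CPM are on TMM-scaled libraries and ± is the SD of 3 cultures. The biological coefficient of variation was 0.0942. Effective lengths were tested on the log2 scale with limma 3.58.1 over 18421 genes. The fits were tested on simulated counts first, and Python 3.11.15 was used for tables and figures.

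Alternatives were DESeq2 1.42.0, a fit of the 6 libraries compared, RLE size factors, no filter, limma-voom, limma on log2(TPM + 0.5), the replicate number as a block, each library left out in turn, and plain DSLB in place of PD-1. The comparisons with plain DSLB as results of their own, the removal of a length trend (a spline with 5 degrees of freedom) and the fit without 4 libraries were added after seeing the data. The members, gene lists and tests were chosen with earlier results of these data known. Values per library are given for members past the test in any of the 9 pairwise comparisons, up to 10 members past the test over the 10 groups in order of p, the 5 members of highest mean TPM, and GAS5, ZFAS1 and DANCR. From each list up to 4 genes are named, in order of p. Gene positions are from GENCODE and hosted snoRNAs and start sites from RefSeq, both on GRCh38.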

Additional observations from a re-analysis of the deposited data

How the results depend on the processing

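No direction reversed among the 18 named values and 83 values against plain DSLB hybrids. The number of members past the test against PD-1 hybrids, with edgeR's 2 in PD-1/CD2, 3 in PD-1/CD27, 0 in PD-1/CD40L, 1 in PD-1/CTLA4 and 0 in PD-1/ICOS, became 6 in PD-1/CD27, and 2 each for PD-1/CD40L and PD-1/CTLA4, with DESeq2. With only the 6 libraries compared it was 1 for PD-1/CD2, 6 for PD-1/CD27 and 0 for PD-1/CTLA4. With no filter it was 5, 7, 2, 5 and 2 in the order of the 5 groups, with limma-voom 6 in PD-1/CD27, on TPM 1 in PD-1/CD2 and 0 in PD-1/CTLA4, and without the 4 libraries 5 in PD-1/CTLA4. With plain DSLB in place of PD-1 the counts were 16, 15, 10, 16, 5, 10 and 11 in the 7 groups, PD-1/LAG3 and PD-1/TIGIT last. Among the members gained were SNHG1, SNHG12 and SNHG21 with DESeq2 and limma-voom in PD-1/CD27, SNHG1, SNHG14 and SNHG19 in the fit of 6 libraries, SNHG3 and SNHG20 in PD-1/CD40L with DESeq2 or no filter, and SNHG8, SNHG11, SNHG17 and SNHG20 in PD-1/CTLA4 without the 4 libraries.

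Against plain DSLB hybrids, removal of the length trend gave 8 in PD-1/CD27, 10 in PD-1/CTLA4, 1 in PD-1/ICOS and 6 in PD-1/TIGIT hybrids. Of all genes 23.9%, 28%, 21.3% and 17.6% passed in these fits. On TPM PD-1/CD40L had 6. PD-1/ICOS had 12 in the fit of 6 libraries and 9 without the 4 libraries, and the length test had 1 without them. The splits on TPM were 7 higher and 4 lower in PD-1, 5 and 1 for PD-1/CD40L, 9 and 2 in PD-1/LAG3, and 8 and 1 in PD-1/TIGIT hybrids. TPM moved the median of all genes by -0.14 to 0.05 on the log2 scale, and values on TPM are to be read relative to that shift.

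With 1 library left out, the count past the test over the 10 groups ran from 15 to 20 and in PD-1 against plain DSLB hybrids from 7 to 9. Against PD-1 hybrids it ran from 2 to 3 in PD-1/CD2, 2 to 5 in PD-1/CD27, 0 to 1 for PD-1/CD40L and 0 to 3 in PD-1/CTLA4, and stayed at 0 in PD-1/ICOS, PD-1/LAG3 and PD-1/TIGIT, as it did for plain DSLB against DSLB-free and for length. Against plain DSLB hybrids it ran from 14 to 16 in PD-1/CD2, 8 to 13 in PD-1/CD27, 4 to 9 for PD-1/CD40L, 10 to 17 in PD-1/CTLA4, 1 to 5 in PD-1/ICOS, 8 to 11 in PD-1/LAG3 and 5 to 9 in PD-1/TIGIT hybrids.

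Over all genes the calls against PD-1 hybrids were 227 in PD-1/CD2 (573 with DESeq2, 6 with 6 libraries, 828 unfiltered, 8 on TPM, 492 with the length trend removed), 421 in PD-1/CD27 (795, 1037, 1290, 181 and 1262), 2 for PD-1/CD40L (104, 4, 481, 9 and 35) and 8 in PD-1/CTLA4 (78 with DESeq2, 699 unfiltered, 2 on TPM). Those at 0 were 16 in PD-1/ICOS, 3 in PD-1/LAG3 and 1 in PD-1/TIGIT with DESeq2, and 442, 288 and 126 unfiltered. With 6 libraries the calls against plain DSLB hybrids were 6138 for PD-1 (4054 in the full set), 6695 for PD-1/ICOS (3614) and 7080 for PD-1/TIGIT (4140). Plain DSLB against DSLB-free gave 2, and 15 with DESeq2, 199 unfiltered, 0 with 6 libraries or on TPM, 5 with the block and 1 with the length trend removed. The length test gave 131, and 218 among genes with a mean count of at least 100.

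The replicate numbers are shared between groups but name separate cultures. Deviations from the group means of same-numbered libraries correlated at -0.273 to 0.267 (median 0.00227, 135 pairs). For libraries of different groups and numbers the correlations were -0.366 to 0.281 (median -0.00452, 270 pairs). No pairing by number was seen, but with 3 libraries a group these values cannot exclude a shared processing set. With the replicate block the member counts were 2, 3, 0, 1, 0, 0 and 0 against PD-1, 12 for PD-1 against plain DSLB and 18 over the 10 groups, and none of the 18 named calls changed, while 2 of the 83 against plain DSLB were lost. The depth of 21903971 to 60506800 counts limits SNHG22, SNHG25 and the snoRNAs most, where a difference may not be detectable.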
